A study of Rattus norvegicus with 2 samples.

Results

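Genes of the rat major histocompatibility complex (MHC, named RT1 in the rat) and of antigen presentation were compared between 1 library of irradiated skin and 1 library of skin that had not been irradiated. The set holds every row of the deposited mRNA table whose symbol starts with RT1-, plus B2m, Cd74, Ciita, Tap1, Tap2, Tapbp, Tapbpl, Psmb8, Psmb9, Psmb10, Nlrc5, Calr, Pdia3, Erap1 and Ctss. It comprises 52 of the 22714 rows, or 51 of 22312 genes once rows of 1 symbol were added together (Tap2 has 2 rows). By their symbols, 27 of the RT1 genes are class I and 9 are class II, and 15 genes lie outside RT1. Both libraries came from male Sprague-Dawley rats with a labelled age of 4 weeks. The irradiated area had received a single electron-beam dose of 45 Gy, and the control was skin from an area outside the field. The labels give neither the time of sampling, nor the number of animals, nor whether RNA was pooled.

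MHC class I molecules pair a polymorphic heavy chain with beta-2 microglobulin and show peptides from the inside of the cell to CD8 T cells and natural killer cells. Proteasomes cut these peptides, the TAP transporter carries them into the endoplasmic reticulum, and tapasin, calreticulin and a disulfide isomerase load them. MHC class II molecules pair an alpha with a beta chain, travel with the invariant chain to endosomes, and show peptides from outside the cell to CD4 T cells. In skin, class I is made by nearly every cell, while class II marks macrophages, Langerhans cells and other dendritic cells. Sprague-Dawley is an outbred stock, and MHC alleles differ between rat strains; which RT1 alleles these animals carried is not given in the labels.

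The irradiated library carries the title NC, an abbreviation left unexpanded; its group was taken from the source label of 45 Gy, and every direction rests on that label. The irradiated library held an estimated 11197471 reads on genes of the table, against 12649566 for the control. With 1 library per group differences have no replicate check, and the effect of irradiation was not tested. Each ratio was taken as log2 of the irradiated over the control value after 1 FPKM had been added to both, where FPKM is read density per transcript length and library size, and a difference was called at 2-fold. Counting intervals are 95% exact Clopper-Pearson intervals of the log2 ratio of scaled counts and cover counting error only. Genes were kept where both libraries averaged 1 FPKM or more; among these 9743, irradiated skin was higher by 2-fold or more for 945 and lower for 149. The median log2 ratio of those genes was 0.21, with quartiles of -0.09 and 0.56. Rescaling this median to 0 gave 686 higher calls and 250 lower calls, a share of 73.3% higher in place of 86.4%. The summed FPKM of 9 keratinocyte markers was 1286 against 73.6, and that of 6 skeletal muscle markers was 245633 against 267014, so both libraries held muscle RNA beside that of skin.

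The promoters of the members are shown here because their shared elements are the basis on which these genes are known to be switched on together. The SXY module of class II genes holds an X box, bound by the RFX complex, and a Y box, bound by NF-Y, and CIITA or NLRC5 docks on the assembled factors. Windows of 250 bases before the annotated start were available from RefSeq (build GRCr8) for 42 of 51 members, 23 of class I, 8 of class II and 11 outside RT1. The reference genome is not that of the studied animals. Motifs were searched on both strands, and a match is only a match of letters. The sequences of 3 class II chains and of the invariant chain gene Cd74 run over the last 150 bases before the start, 5′ to 3′ on the strand of the gene, with the X core TNGCAAC and the Y core GATTGG, or its reverse complement, in capitals. RT1-Da lies at chr20:4515265-4515414 (plus strand), RT1-Db1 at chr20:4560163-4560312 (minus strand), RT1-Ba at chr20:4576907-4577056 (plus strand) and Cd74 at chr18:56527056-56527205 (plus strand).
RT1-Da: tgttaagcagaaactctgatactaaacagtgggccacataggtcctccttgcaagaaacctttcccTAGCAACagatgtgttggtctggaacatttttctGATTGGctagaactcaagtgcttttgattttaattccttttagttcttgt
RT1-Db1: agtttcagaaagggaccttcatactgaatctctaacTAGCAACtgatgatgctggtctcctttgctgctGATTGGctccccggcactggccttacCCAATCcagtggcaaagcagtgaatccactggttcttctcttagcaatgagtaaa
RT1-Ba: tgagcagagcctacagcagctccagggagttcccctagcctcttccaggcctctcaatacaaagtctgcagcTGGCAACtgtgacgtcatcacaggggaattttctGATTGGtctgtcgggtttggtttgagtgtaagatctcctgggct
Cd74: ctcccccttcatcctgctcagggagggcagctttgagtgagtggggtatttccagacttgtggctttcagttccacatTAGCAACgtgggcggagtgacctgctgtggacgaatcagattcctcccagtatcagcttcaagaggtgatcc

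In RT1-Da and RT1-Ba the first base of the X core preceded that of the Y core by 34 bases, in RT1-Db1 by 33 bases and in RT1-DOb by 31 bases. The Y core was found in all 8 class II windows and in 12 of 23 class I windows, against 13.3% of all 33469 windows. The X core was found in 4 of 8 class II windows, in 5 of 23 class I windows and in 8.55% of all windows. An X core followed on the same strand by a Y core at a spacing of 31 to 34 bases occurred in 7 of all windows, and RT1-Da, RT1-Db1, RT1-Ba and RT1-DOb made up 4 of these. That spacing was chosen after these promoters had been read, so its count is a description. The window of Cd74 held the X core but not the Y core.

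The classical class I promoters are shown for their near-identity. The next 3 sequences run over the last 200 bases before the start, with the kappa B core GGGNNTTCC, the X2 core TGACG and the Y core, each on either strand, in capitals. RT1-A2 lies at chr20:4872671-4872870, RT1-A1 at chr20:4907009-4907208 and B2m at chr3:129549130-129549329, all on the plus strand of GRCr8.
RT1-A2: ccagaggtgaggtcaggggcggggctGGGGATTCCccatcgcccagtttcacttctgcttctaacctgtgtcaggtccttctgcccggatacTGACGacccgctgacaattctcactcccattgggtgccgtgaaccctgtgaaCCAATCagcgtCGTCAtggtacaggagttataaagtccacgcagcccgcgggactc
RT1-A1: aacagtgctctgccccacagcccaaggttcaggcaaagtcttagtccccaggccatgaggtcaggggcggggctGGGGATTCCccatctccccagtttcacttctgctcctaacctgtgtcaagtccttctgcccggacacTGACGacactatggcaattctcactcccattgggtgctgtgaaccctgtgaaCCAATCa
B2m: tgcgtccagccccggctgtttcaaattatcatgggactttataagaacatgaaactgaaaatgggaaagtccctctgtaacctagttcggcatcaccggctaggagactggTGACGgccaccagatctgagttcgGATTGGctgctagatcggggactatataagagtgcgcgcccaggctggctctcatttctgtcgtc

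Aligned to each other, the upstream windows of RT1-A1 and RT1-A2 matched at 185 of 202 bases (91.6%), the highest identity among 55 pairs of 11 class I genes kept. In 15 of these pairs the identity reached 80%, and the median was 63.8%. Those 15 were all among RT1-A1, RT1-A2, RT1-CE4, RT1-CE5, RT1-CE10 and RT1-CE16. Identity was taken over the aligned stretch, which ran from 5 to 250 bases, so the values are not all of whole windows. The kappa B core occurred in 7 of 23 class I windows against 5.09% of all windows, and the X2 core in 5 of 23 against 18.2%.

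Of the 51 members, 27 reached a mean of 1 FPKM and 24 did not. None of the 27 was at least 2-fold higher in the irradiated library, where 9.70% of all genes were, and 1 was at least 2-fold lower, where 1.53% were. Their median log2 ratio was 0.13, below the 0.21 of all genes. In bulk tissue, fewer cells of a type and less RNA per cell cannot be told apart, and this holds for every level below. By counting error alone, 9 of the 27 had an interval above 0, against 44.5% of all genes, and 2 had an interval below 0, against 15.9%. The 9 were RT1-CE10, RT1-T24-3, RT1-T24-4, Tap1, Tapbpl, Calr, Pdia3, Psmb8 and Psmb9, and the 2 were RT1-M3-1 and Ctss. The members that passed the filter did so on their mean over both libraries, so these counts describe them and not the 24 that stayed below it.

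**Figure D1:**
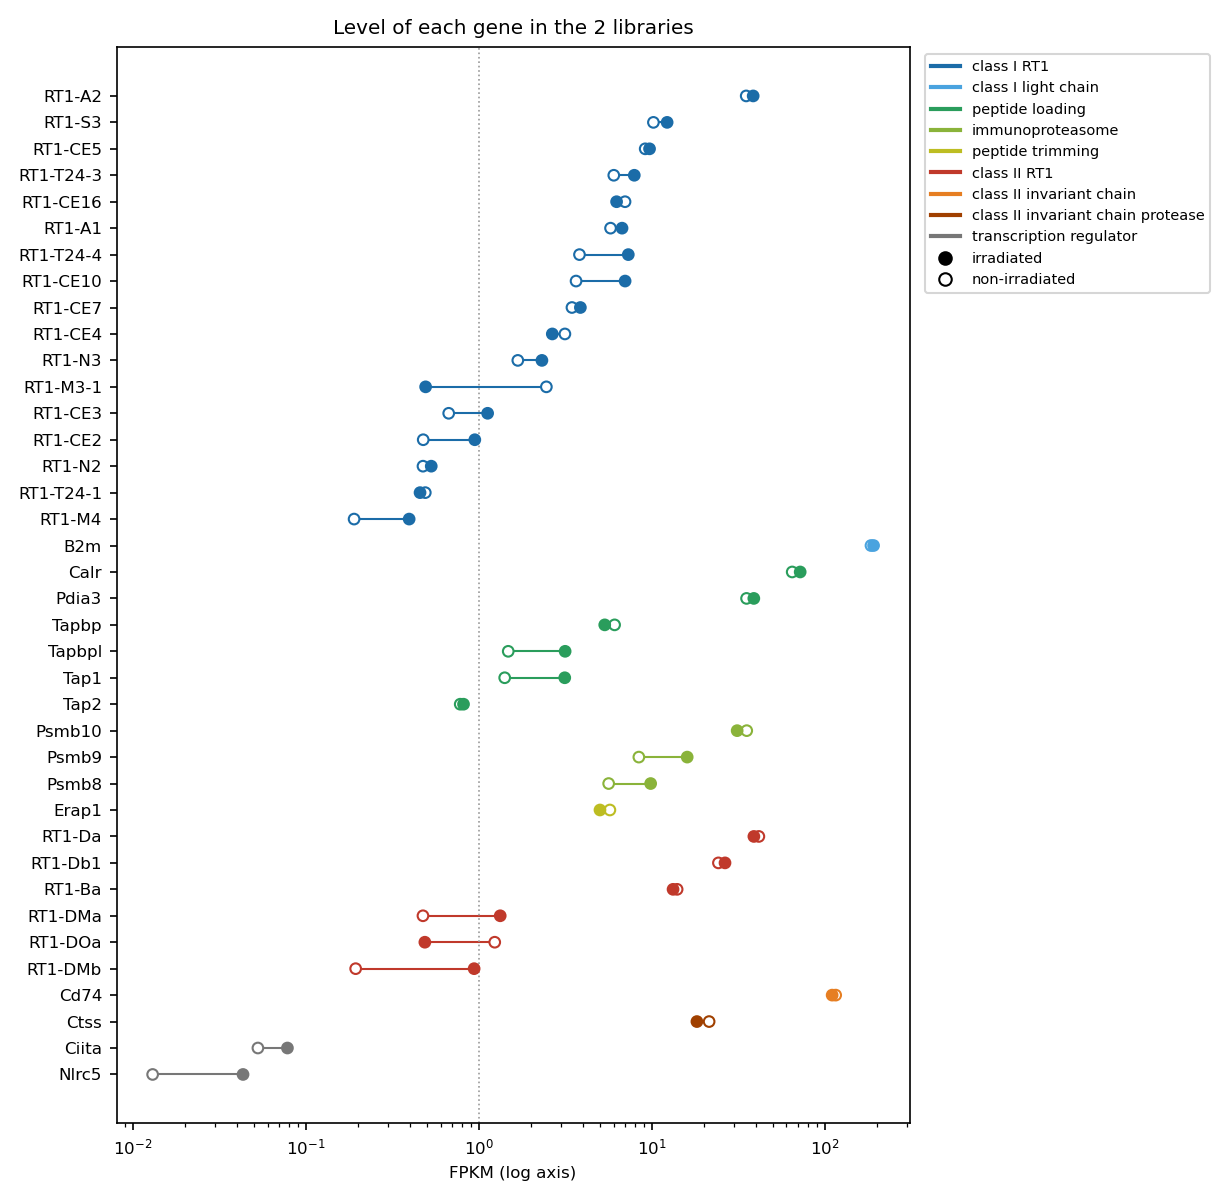
FPKM on a log axis for the 38 members with reads in both libraries, filled for irradiated and open for non-irradiated skin, 1 library each, coloured by role; the dotted line marks 1 FPKM. B2m, Cd74 and the abundant class I and II chains nearly coincide, while Tap1, Tapbpl, Psmb8 and Psmb9 lie further right in irradiated skin and RT1-M3-1 lies further left.

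RT1-A2 led the class I heavy chains in both libraries. The 27 class I genes summed to 109 FPKM in irradiated and 93.7 FPKM in non-irradiated skin, a ratio of 1.16. Their 1689 and 1620 reads gave a log2 ratio of 0.21 on scaled counts, with a counting interval of 0.11 to 0.31. These reads were 0.0151% (0.0144 to 0.0158%) and 0.0128% (0.0122 to 0.0134%) of the libraries. The median log2 ratio of the 12 class I genes kept was 0.16, and after subtraction of the all-gene median it was -0.05.

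RT1-A2, a classical class Ia gene (ENSRNOG00000030712, chromosome 20, 7433432 to 7436985 in the deposited table), was the most abundant heavy chain. It stood at 38.5 FPKM in irradiated and 35.1 FPKM in non-irradiated skin and made up 35.3% and 37.4% of the summed class I FPKM. Its log2 ratio was 0.13, and the interval of -0.03 to 0.28 held 0. RT1-A1, the other classical gene, stood at 6.72 against 5.77 FPKM, with an interval of -0.18 to 0.60. The upstream windows of RT1-A1 and RT1-A2 are close copies, while the identity of their transcripts was not computed. Summed, they had 781 against 788 reads, with an interval of -0.01 to 0.28 and a FPKM log2 ratio of 0.14. How reads shared by them were assigned is not given, so the sum may count such reads more than once. The ratios of RT1-A1 and RT1-A2 turned negative when the median of all genes was set to 0. In both libraries RT1-A2 exceeded RT1-A1 in FPKM, by 5.73 times in irradiated and 6.09 times in non-irradiated skin.

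B2m, the light chain of every class I molecule, was the most abundant member. It stood at 191 FPKM in irradiated and 185 FPKM in non-irradiated skin, on 3925 and 4225 reads. The log2 ratio was 0.05, with an interval of -0.02 to 0.11, and it was negative relative to the median of all genes, at -0.16. Per length, B2m stood at 1.75 times the summed heavy chains in irradiated and 1.97 times in non-irradiated skin.

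The remaining class I genes kept belong to the C/E region or are non-classical class Ib genes. RT1-CE10 stood at 7.002 against 3.64 FPKM, on 79 and 46 reads, with an interval of 0.39 to 1.49. RT1-T24-4 stood at 7.30 against 3.81 FPKM, on 134 and 78 reads, with an interval of 0.52 to 1.35. These were the highest class I ratios, at 0.78 and 0.79 on the log2 scale, and both remained below 2-fold. RT1-S3, for which the table lists the mouse gene H2-T23 as a synonym, stood at 12.2 against 10.2 FPKM. RT1-CE5 stood at 9.69 against 9.15 FPKM and RT1-T24-3 at 7.91 against 6.02 FPKM. RT1-CE7 stood at 3.86 against 3.45 FPKM and RT1-N3 at 2.31 against 1.68 FPKM. In contrast to these, RT1-CE16 and RT1-CE4 were lower in the irradiated library, at 6.25 against 6.996 FPKM and 2.66 against 3.14 FPKM, with intervals that held 0.

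RT1-M3-1 was the single member beyond 2-fold among those that passed the filter. It is a class Ib gene whose mouse counterpart, H2-M3, presents peptides that start with N-formylmethionine, as bacterial and mitochondrial proteins do. It stood at 0.492 FPKM in irradiated and 2.45 FPKM in non-irradiated skin, a log2 ratio of -1.21. The call rests on 7 against 39 reads, with an interval of -3.73 to -1.15, and ended with a pseudocount of 5 FPKM. Of all genes kept, 0.924% had a lower ratio. RT1-M3-1 reached a mean of 1 FPKM only through its value in non-irradiated skin. Passing the filter in this way favours a lower call, so the call and this share are descriptions.

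The other 15 class I genes stayed below a mean of 1 FPKM. RT1-CE3 alone among them reached 1 FPKM in a library, at 1.12 against 0.669 FPKM. RT1-CE2 (16 and 9 reads), RT1-N2 (8 and 8), RT1-T24-1 (5 and 6) and RT1-M4 (4 and 2) had few reads. RT1-M2, RT1-M6-2, RT1-M1-2 and RT1-O1 had 1 or 2 reads in the irradiated library and none in the other. RT1-M1-4, RT1-M1-5, RT1-M10-1, RT1-M5, RT1-S2 and RT1-T18 had no reads in either, which allows up to 3 reads in each library.

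**Figure D2:**
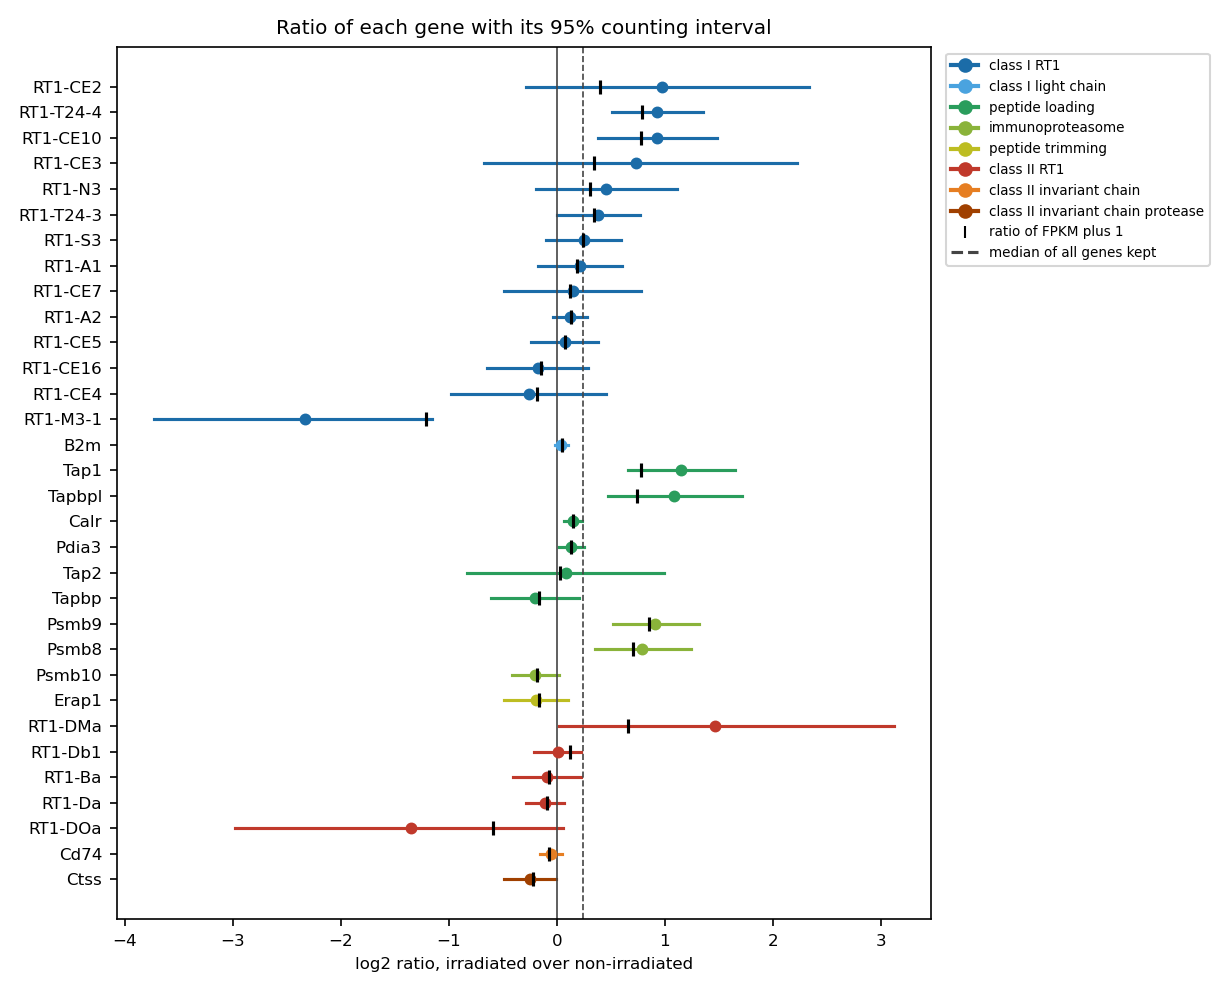
Log2 ratio of scaled counts, irradiated over non-irradiated, with its 95% exact Clopper-Pearson counting interval (bars) for the 32 members with at least 20 reads in sum, from 1 library each; black ticks give the log2 ratio of FPKM plus 1, and the dashed line is the median of all genes kept on scaled counts (0.24). The intervals of Tap1, Tapbpl, Psmb9, Psmb8, RT1-T24-4 and RT1-CE10 lie right of the dashed line, and those of B2m, RT1-Da and Cd74 lie left of it.

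Psmb8 and Psmb9 encode catalytic subunits of the immunoproteasome, the form of the proteasome induced by interferon gamma. Psmb9 stood at 16.0 FPKM in irradiated and 8.41 FPKM in non-irradiated skin (log2 0.85, 146 and 86 reads, interval 0.52 to 1.31). Psmb8 stood at 9.84 against 5.63 FPKM (log2 0.71, 111 and 71 reads, interval 0.35 to 1.24). The third inducible subunit, Psmb10, stood at 31.1 against 35.3 FPKM (log2 -0.18, interval -0.41 to 0.02). Psmb8 and Psmb9 were thus higher in the irradiated library beyond counting error, and Psmb10 was not.

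The TAP transporter is a dimer of TAP1 and TAP2. Tap1 stood at 3.14 FPKM in irradiated and 1.41 FPKM in non-irradiated skin, a ratio of 2.22 without a pseudocount. Its log2 ratio of FPKM plus 1 was 0.78, and its 108 and 54 reads gave an interval of 0.66 to 1.65. Tap2 summed over its 2 rows to 0.815 against 0.780 FPKM, on 22 and 23 reads, with an interval of -0.83 to 0.99. Tap1 stood at 3.85 times the FPKM of Tap2 in irradiated and 1.81 times in non-irradiated skin. The intervals of Tap1 and Tap2 overlapped, and the difference between their ratios was not tested.

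Psmb9 and Tap1 are neighbours that are read in opposite directions, with 189 bases between their intervals in the deposited table, and Psmb8 and Tap2 follow on the same chromosome. The upstream windows of Tap1 and Psmb9 in GRCr8 overlapped by 44 bases, and their starts lay 457 bases apart. The Tap1 promoter is shown because it faces that of Psmb9; it lies at chr20:4668544-4668743 (minus strand), with a match of the core of an interferon-stimulated element, TTCNNTTTC, in capitals.
Tap1: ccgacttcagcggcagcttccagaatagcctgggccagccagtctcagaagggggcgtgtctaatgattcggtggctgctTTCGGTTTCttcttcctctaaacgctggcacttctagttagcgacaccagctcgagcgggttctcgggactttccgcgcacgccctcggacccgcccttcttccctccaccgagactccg

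This core was found in 6 of the 11 windows of members outside RT1, in 3 of 23 class I windows and in none of 8 class II windows, against 8.12% of all windows. The 6 were Tap1, Tap2, Tapbp, Psmb10, B2m and Ctss, of which Tap1 alone had a counting interval above 0. The Psmb9 window did not hold it.

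Of the loading factors, Tapbpl, a tapasin relative that edits peptides, stood at 3.15 FPKM in irradiated and 1.48 FPKM in non-irradiated skin. Its ratio was 2.13 without a pseudocount and 0.74 on the log2 scale with it, on 67 and 35 reads (interval 0.48 to 1.72). Tapbp, which encodes tapasin itself, stood at 5.34 against 6.09 FPKM, with an interval of -0.61 to 0.21. The general chaperones were nearly level: Calr, calreticulin, stood at 72.0 against 64.7 FPKM and Pdia3, the disulfide isomerase of the loading complex, at 38.8 against 35.3 FPKM. Their log2 ratios of 0.15 and 0.14 lay below the median of all genes, although both intervals (0.07 to 0.23 and 0.02 to 0.25) lay above 0. With a pseudocount of 0.1 FPKM, or on scaled counts, Tap1 and Tapbpl passed 2-fold. Erap1, the aminopeptidase that trims peptides in the endoplasmic reticulum, stood at 5.01 against 5.72 FPKM, with an interval of -0.49 to 0.10.

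The summed level of the class II chains was nearly equal in the libraries. The 9 class II genes summed to 81.7 FPKM in irradiated and 81.7 FPKM in non-irradiated skin, on 1014 and 1160 reads, with an interval of -0.17 to 0.08. RT1-Da, the alpha chain of the D molecule, stood at 38.9 against 41.5 FPKM (log2 -0.09, interval -0.28 to 0.07). Its partner RT1-Db1 stood at 26.5 against 24.2 FPKM (log2 0.12, interval -0.21 to 0.23). RT1-Ba, the alpha chain of the B molecule, stood at 13.3 against 14.0 FPKM (log2 -0.07, interval -0.41 to 0.23). Relative to the median of all genes, RT1-Da, RT1-Ba and RT1-Db1 stood at -0.30, -0.28 and -0.09. Per length, RT1-Da exceeded RT1-Db1 by 1.47 times in irradiated and 1.71 times in non-irradiated skin.

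The beta chain of the B molecule is listed under LOC688090, with RT1-Bb as a synonym, and so falls outside the symbol rule. It stood at 4.57 against 6.80 FPKM (log2 -0.48), on 76 and 126 reads, with an interval of -1.01 to -0.16. This interval lay below 0, unlike that of RT1-Ba. Cd74, the invariant chain that guides class II molecules, stood at 110 against 115 FPKM (log2 -0.07, interval -0.15 to 0.05), 2.83 and 2.78 times the FPKM of RT1-Da. Ctss, the cathepsin that degrades the invariant chain, stood at 18.2 against 21.4 FPKM (log2 -0.22, interval -0.49 to -0.01).

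Markers of the cell types that could carry these transcripts are given beside the levels. Of 12 macrophage markers, 10 were kept, none was beyond 2-fold, and their median log2 ratio was 0.02. Their summed FPKM was 350 in irradiated and 344 in non-irradiated skin. Clec10a, a lectin of dendritic cells and macrophages, stood at 18.9 against 19.96 FPKM. The 10 dendritic and Langerhans cell markers summed to 21.1 against 23.2 FPKM, most of it Clec10a, with 2 kept. The others had few reads and differed in direction. Among them, chosen after their values were seen, Cd207, the langerin gene of Langerhans cells, had 7 reads against 0 and Flt3, a receptor of dendritic cells, 8 against 0, both with intervals above 0. Itgax had 4 reads against 0, Batf3 0 against 4, and Cd83, one of those kept, 19 against 41 with an interval below 0. All 6 B cell markers had no reads in either library. The 11 T and NK cell markers, of which 10 were matched, summed to 4.16 against 2.97 FPKM, and 3 had no reads. Most of each sum was Cd4, at 2.56 against 2.25 FPKM, the 1 marker kept, so the sums rest largely on 1 gene. The T cell genes Cd3d and Cd3g had no reads in either library, and Cd3e had 2 against 0. Of those below the filter, Prf1, picked after its value was seen, had 15 reads against 0 with an interval above 0. Cd8a had 4 reads against 5 and Nkg7 1 against 3. All 8 keratinocyte markers kept were at least 2-fold higher in the irradiated library, with a median log2 ratio of 3.39. The 7 endothelial markers summed to 16.7 against 30.4 FPKM and the 6 fibroblast markers to 745 against 1077 FPKM. The part of these cell types in the levels of the members was not tested.

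The editors of class II peptides had few reads. DM removes the invariant chain peptide from class II molecules, and DO restrains DM. RT1-DMa stood at 1.33 against 0.475 FPKM, on 15 and 6 reads, and RT1-DMb at 0.938 against 0.194 FPKM, on 13 and 3 reads. Both intervals lay above 0, at 0.02 to 3.12 and 0.40 to 4.72. RT1-DOa stood at 0.487 against 1.23 FPKM, on 6 and 17 reads, with an interval of -2.98 to 0.06. RT1-DOb stood at 0.251 FPKM on 2 reads and RT1-Db2 at 0.118 FPKM on 1 read in the irradiated library, with no reads in the other. RT1-Ha had none in either.

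Both DM genes have a copy elsewhere in the table. LOC100909593, described as an M alpha chain-like antigen, spans 3403 bases on the plus strand (chromosome 20, 6015059 to 6018462), and RT1-DMa spans 3403 bases on the minus strand (7302036 to 7305439). LOC100909630, described as M beta 1 chain-like, and RT1-DMb both span 7237 bases, again on opposite strands. The 2 rows of Tap2 lie on opposite strands in the same stretches, as do Brd2 and LOC100909544, which is described as Brd2-like. The table therefore lists a block of the class II region in 2 orientations. How reads shared by such copies were assigned is not given in the sources used here. The build of the table is not named there either.

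Summed over both copies, DM alpha stood at 3.10 FPKM in irradiated and 0.871 FPKM in non-irradiated skin, on 35 and 11 reads. The log2 ratio was 1.13, which is past 2-fold, with an interval of 0.81 to 2.95. This sum reached a mean of 1 FPKM only through its value in irradiated skin. That favours a higher call, so the call is a description. DM beta summed to 2.67 against 1.16 FPKM, on 37 and 18 reads (log2 0.76, interval 0.34 to 2.09). Both sums may count reads shared by the copies more than once, and the intervals would then be too narrow. Summing the copies was an alternative added after the data had been seen.

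**Figure D3:**
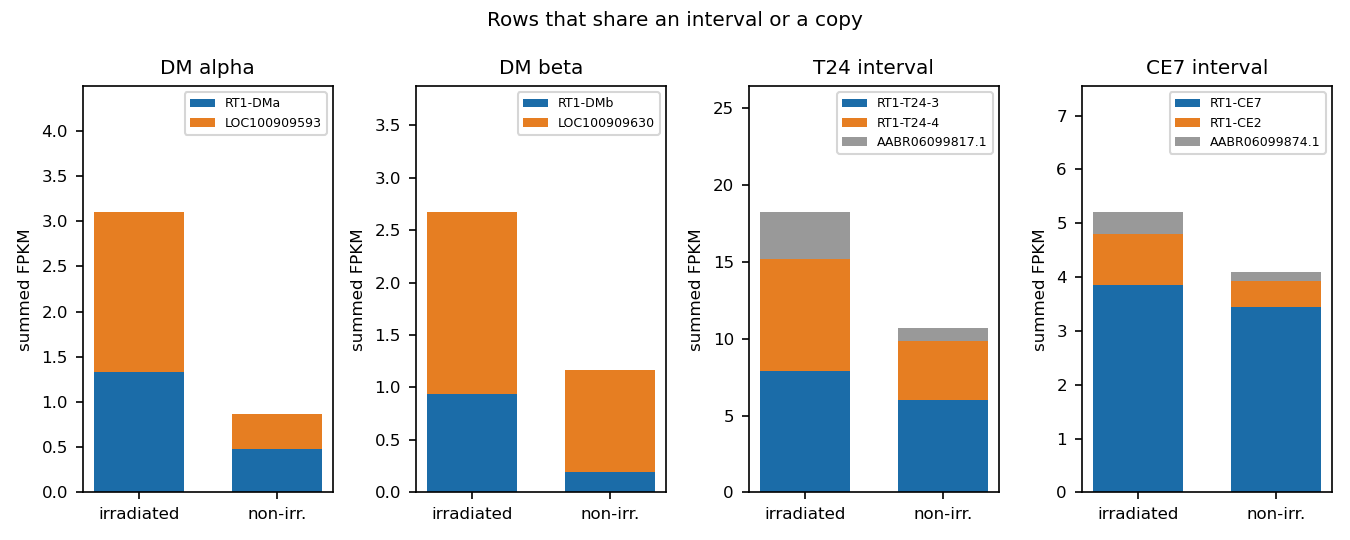
Summed FPKM of rows that are copies of each other (DM alpha, DM beta) or that share an interval (T24, CE7), stacked by row, in 1 irradiated and 1 non-irradiated library; each panel has its own axis starting at 0. DM alpha sums to 3.10 against 0.871 FPKM and the T24 interval to 18.2 against 10.7 FPKM.

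Some class I rows share a listed interval. RT1-T24-3, RT1-T24-4 and AABR06099817.1 are all listed with the interval 5284532 to 5355961 of chromosome 20, so the table does not separate their positions. AABR06099817.1, which falls outside the symbol rule, stood at 3.03 against 0.864 FPKM on 25 and 8 reads. Its log2 ratio of 1.11 is past 2-fold, but it reached a mean of 1 FPKM only through its value in irradiated skin. Summed, the 3 rows stood at 18.2 against 10.7 FPKM, on 285 and 193 reads (log2 0.72, interval 0.44 to 0.98). This sum may count shared reads more than once. RT1-CE7, RT1-CE2 and AABR06099874.1 share the interval 6718291 to 6872656 and summed to 5.21 against 4.10 FPKM, with an interval of -0.20 to 0.90. The separate values of these genes are uncertain, and so are those of other class I genes with close copies.

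The master regulators of both pathways were near the floor of detection. Ciita, the class II transactivator, stood at 0.0782 against 0.0528 FPKM on 4 and 3 reads. Nlrc5, its class I counterpart, stood at 0.0433 against 0.0130 FPKM on 3 and 1 reads, so no difference could be read from either. Of 6 transcription factor genes kept for these promoters, 2 had an interval above 0 and 2 below it, against 44.5% and 15.9% of all genes. The 2 with an interval above 0 reached a mean of 1 FPKM only through their value in irradiated skin. Passing the filter in this way favours a higher ratio, so this count is a description. Rfx5, a subunit of RFX, stood at 2.33 against 0.849 FPKM (log2 0.85, 116 and 47 reads), while Rfxank, another subunit, stood at 7.28 against 11.1 FPKM (log2 -0.55). None of the 6 was beyond 2-fold on FPKM plus 1, but without the pseudocount the ratio of Rfx5 was 2.74. Of 7 genes kept of interferon gamma signalling none was beyond 2-fold on FPKM plus 1. Their median was 0.28, beside 0.21 for all genes, with 4 ratios above 0 and 3 below it. Without the pseudocount Irf2 had a ratio of 2.23, on 40 and 20 reads. Irf1, a transcription factor that drives Tap1 and Psmb9, stood at 3.67 against 2.25 FPKM. In the other direction, the receptor gene Ifngr1 stood at 14.3 against 17.3 FPKM, with an interval of -0.50 to -0.06. Ifng itself had no reads in either library.

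Other genes of the pathway that passed the filter were within 2-fold on FPKM plus 1, with the exception of Cd1d1. All 14 genes of the constitutive proteasome core were kept, with a median of 0.13 and a summed FPKM of 2747 against 2541. Psmb6, the constitutive counterpart of Psmb9, stood at 353 against 356 FPKM and far exceeded Psmb9 in both libraries. Of the proteasome activators, Psme2 stood at 39.6 against 27.9 FPKM and its partner Psme1 at 85.4 against 86.9 FPKM. The 7 chaperones of the endoplasmic reticulum had a median of 0.10 and the 5 peptidases 0.24. The 9 endosomal genes had a median of -0.01, with the cathepsin gene Ctsl at 49.1 against 78.3 FPKM and Ctsc at 17.6 against 10.9 FPKM. Cd1d1, a class I-like molecule that presents lipids to natural killer T cells, stood at 5.38 FPKM in irradiated and 22.4 FPKM in non-irradiated skin, on 111 and 514 reads (log2 -1.87). Fcgrt, the class I-like neonatal Fc receptor, stood at 28.6 against 40.9 FPKM (log2 -0.50). Of 7 costimulation genes 2 were kept, and they differed in direction. Icam1, an adhesion molecule of T cell contacts, stood at 2.72 against 1.06 FPKM (log2 0.85). Icoslg stood at 1.77 against 2.11 FPKM (log2 -0.17). Without the pseudocount the ratio of Icam1 was 2.56, on 83 and 36 reads.

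**Figure D4:**
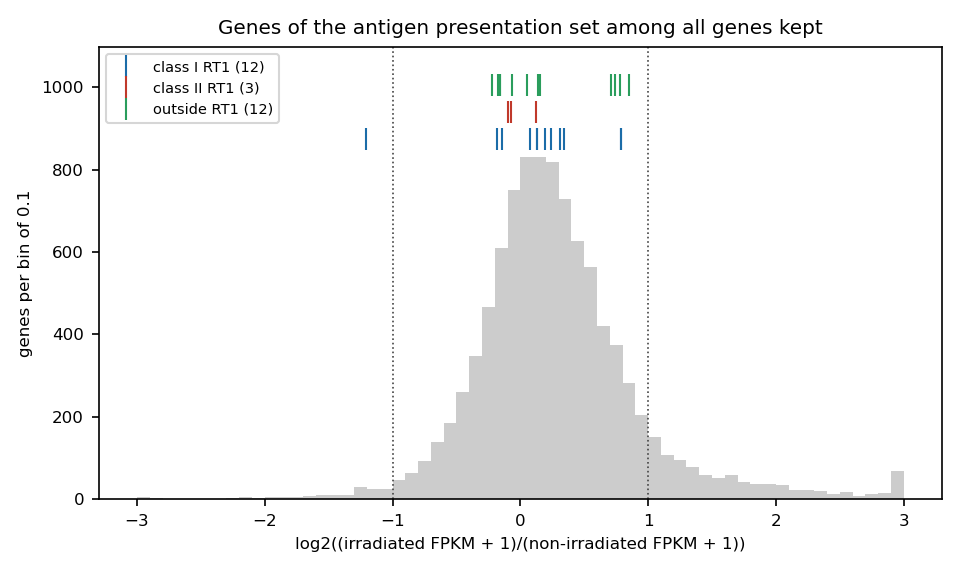
Histogram of the log2 ratio of FPKM plus 1 for the 9743 genes kept (grey, bins of 0.1, the outermost bins hold all values beyond 3) with the members marked above it: 12 class I, 3 class II and 12 outside RT1, from 1 library per group. Dotted lines mark 2-fold; 1 member, RT1-M3-1, lies outside them.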

How the data were processed

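Total RNA of skin was depleted of ribosomal RNA and sequenced as stranded libraries, per the labels' protocols. Cuffdiff, Cufflinks, HISAT2 2.0.4 and cutadapt 1.9.3 are listed, per the submitters' processing notes; build, annotation and strand setting were not given in the sources used here. The deposited FPKM values were made by the authors, per the file headers. The deposited count columns are a scaled signal in steps of 1.05 and 0.951 per read; 97.7% and 98.0% of values above 0 lay on whole steps (tolerance 0.01 read and 1e-05 per read), and dividing by the step gave the estimated reads. No count model was run, since there is 1 library per group. Values were added up per symbol, with the identifier in place of a missing symbol in 49 rows, and a mean of 1 FPKM was the lower limit. PCR copies are not independent molecules, so intervals cover counting error only. Of 141 listed context and marker genes, 135 matched by symbol and 3 by synonym. The span given in the table is that of the gene interval. Members and lists were chosen with earlier results of these data known. All members were described by name or count. Of each context list, genes were named from the 2 largest absolute ratios and the 2 highest means among those kept. The exceptions were Ifng and the dendritic, Langerhans, T and NK cell markers below the filter, which were chosen after their values were seen. The steps were tested on simulated data. Python 3.11.15, pandas 2.3.3, scipy 1.17.1 and Biopython 1.88 were used. Alternatives in pseudocount, filter, scaling, unit and row handling were computed.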

Additional observations from a re-analysis of the deposited data

How the results depend on the processing

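The limits are 1 library per group, close copies among RT1 genes and few reads for Tap2, DM, DO and the regulators. No member was at least 2-fold higher as reported, but 2 were (Tap1 and Tapbpl) with a pseudocount of 0.1 FPKM and likewise 2 on scaled counts. With near-identical copies summed, 1 was (RT1-DMa with its copy), and that sum passed the filter only through its irradiated value. RT1-M3-1 was the 1 lower member; with a pseudocount of 5 FPKM the number of lower members was 0, and with a mean of at least 5 FPKM, which removed it, also 0. The class II median of -0.07 was -0.30 with the median ratio of all genes set to 0 and -0.31 under trimmed-mean scaling, and it was 0.12 with no filter. The class I median of 0.16 turned to -0.05 under both scalings, and that of the members outside RT1 (0.09) to -0.15 and -0.16; the latter was -0.03 without the 100 highest genes and -0.01 with a mean of at least 5 FPKM. Psmb8, Psmb9, Tap1, Tapbpl, RT1-T24-4 and RT1-CE10 had ratios above 0 and Cd74, RT1-Da and RT1-Ba below 0 in every setting that kept them, while B2m was below 0 in 3 of 11 and RT1-A1, RT1-A2, RT1-CE5, RT1-CE7, RT1-Db1, Calr and Pdia3 also changed sign. Summing copies was added after the data were seen, and leaving out a replicate could not be done. No paired analysis was possible because each group has 1 library.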
